A study of Mus musculus with 12 samples.

Results

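Expression of 7 genes for subunits of the GABA-A receptor was described in mouse somatosensory thalamus at birth. The genes were Gabra2, Gabra3 and Gabra5 (alpha subunits), Gabrb1 and Gabrb2 (beta subunits) and Gabrg1 and Gabrg3 (gamma subunits). They were chosen by name, with earlier results of these data known, and were matched through their Ensembl gene identifiers. They are 7 of the 55359 genes in the count files. All 7 were counted in all 12 libraries and all 7 passed the filter on low counts. Genes of other GABA-A subunits were not analysed here, so every share below is a share among these 7 genes only.

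The tissue was the ventroposterior medial nucleus (VPM) of the thalamus, which carries touch from the face to the cortex, taken at postnatal day 0. It was dissected in 2 territories, PMBSF, which receives input from the whisker pad, and ALBSF, which receives input from the upper lip. The groups were ALBSF of embWPC pups, PMBSF of Ctrl pups (control, with no other treatment named) and ALBSF of Ctrl pups, with 4 libraries each. The labels do not spell out embWPC, and the name is used as it stands; no PMBSF library of embWPC pups was analysed here. Strain and genotype are not given in the labels. Each library was made from 5 pooled brains, so p-values measure the spread between pools and not between pups, and the RNA is that of all cells in the dissected piece.

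Library totals were 31712820 to 33702453 counts for embWPC ALBSF, 31921767 to 34512840 for Ctrl PMBSF and 28457046 to 31850727 for Ctrl ALBSF. The 7 genes had between 451 and 11225 counts per library. All 10 markers of thalamic relay neurons were above 0.5 CPM on average (CPM, the unit of level used below, are counts scaled by the TMM-adjusted total of each library), and summed to 2312 to 2740 CPM in embWPC ALBSF, 2115 to 2403 CPM in Ctrl PMBSF and 2274 to 2758 CPM in Ctrl ALBSF. Markers of meningeal fibroblasts stood apart in Ctrl PMBSF: their summed CPM was 15.6, 90.6, 37.0 and 30.2 in Ctrl PMBSF 1 to 4, against 12.2 to 13.5 in embWPC ALBSF and 18.0 to 19.4 in Ctrl ALBSF.

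GABA-A receptors are chloride channels in the cell membrane that GABA, the main inhibitory transmitter of the brain, opens. Each channel is a ring of subunits, most often of the alpha, beta and gamma classes, and the alpha and gamma subunits set much of its kinetics, its place at or away from synapses and its response to benzodiazepines. In immature neurons, chloride inside the cell is often high because the importer encoded by Slc12a2 outweighs the exporter encoded by Slc12a5, and GABA can then depolarise the cell. In the rodent VPM, GABA comes mainly from the neighbouring reticular nucleus, since few local interneurons are present.

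Several of the genes lie side by side in the genome. In GRCm39, Gabrg1 (ENSMUSG00000001260, chr5:70906506-70999960, minus strand), Gabra2 (ENSMUSG00000000560, chr5:71114573-71253662, minus strand) and Gabrb1 (ENSMUSG00000029212, chr5:71815456-72319431, plus strand) share one stretch of chromosome 5. Gabrg3 (ENSMUSG00000055026, chr7:56366213-57036936) and Gabra5 (ENSMUSG00000055078, chr7:57055164-57240831) are neighbours on the minus strand of chromosome 7. Gabrb2 (ENSMUSG00000007653, chr11:42310493-42523417, plus strand) and Gabra3 (ENSMUSG00000031343, chrX:71476275-71700723, minus strand) lie apart. Exons of other annotated genes covered 7.92% of the exon length of Gabra5, 4.31% of Gabrb1, 3.39% of Gabra2 and 3.07% of Gabrg3, and 0% of Gabra3, Gabrb2 and Gabrg1. The strand setting of the counting is not given in the sources used here, so reads in those stretches cannot be assigned with certainty.

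Promoter sequences are shown for the 3 genes that differed between the control territories in at least 1 of the fits described below, Gabra2, Gabra5 and Gabrg1. They run 5′ to 3′ on the gene's own strand from 250 bases before to 50 bases after a transcript start in RefSeq, on GRCm38.p6, a different build from the gene positions above: chr5:71095800-71096099 for Gabra2, chr7:57510010-57510309 for Gabra5 and chr5:70842568-70842867 for Gabrg1. Capitals mark each CG pair (CpG), the dinucleotide at which vertebrate DNA is methylated.
Gabra2: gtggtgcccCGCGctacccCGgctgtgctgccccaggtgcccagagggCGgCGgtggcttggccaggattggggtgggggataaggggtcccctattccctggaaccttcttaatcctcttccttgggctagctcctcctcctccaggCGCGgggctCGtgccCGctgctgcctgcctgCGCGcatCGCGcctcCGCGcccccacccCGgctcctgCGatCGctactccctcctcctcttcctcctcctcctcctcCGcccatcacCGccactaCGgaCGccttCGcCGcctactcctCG
Gabra5: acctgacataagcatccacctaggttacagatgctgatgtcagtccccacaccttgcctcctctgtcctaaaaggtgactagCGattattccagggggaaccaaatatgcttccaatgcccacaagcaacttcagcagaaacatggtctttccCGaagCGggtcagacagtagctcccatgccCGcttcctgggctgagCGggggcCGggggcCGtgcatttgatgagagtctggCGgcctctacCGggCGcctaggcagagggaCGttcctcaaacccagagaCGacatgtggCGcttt
Gabrg1: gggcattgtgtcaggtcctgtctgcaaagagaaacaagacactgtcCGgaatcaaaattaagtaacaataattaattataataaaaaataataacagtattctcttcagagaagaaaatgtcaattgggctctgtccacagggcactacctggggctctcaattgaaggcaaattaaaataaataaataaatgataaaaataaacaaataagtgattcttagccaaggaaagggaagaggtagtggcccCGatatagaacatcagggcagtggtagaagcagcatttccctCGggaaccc
The Gabra2 window was 70% G and C with 25 CpG, the Gabra5 window 56.7% with 13 CpG, and the Gabrg1 window 38.3% with 3 CpG. Among the 32841 promoter windows of the same length, 81.6% had fewer CpG than Gabra2, 62.1% fewer than Gabra5 and 23.3% fewer than Gabrg1, so the 3 cover the range from CpG-rich to CpG-poor. Each window was searched on both strands for 3 short motifs, and none of them was found. The nuclear receptor hexamer AGGTCA occurs in 16.3% of all windows. The TATA box, searched as TATAAA, occurs in 13.6%. The E-box, searched as CACGTG, occurs in 7.15%. No methylation or binding was measured here, and these matches are descriptions of sequence only.

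**Figure D1:**
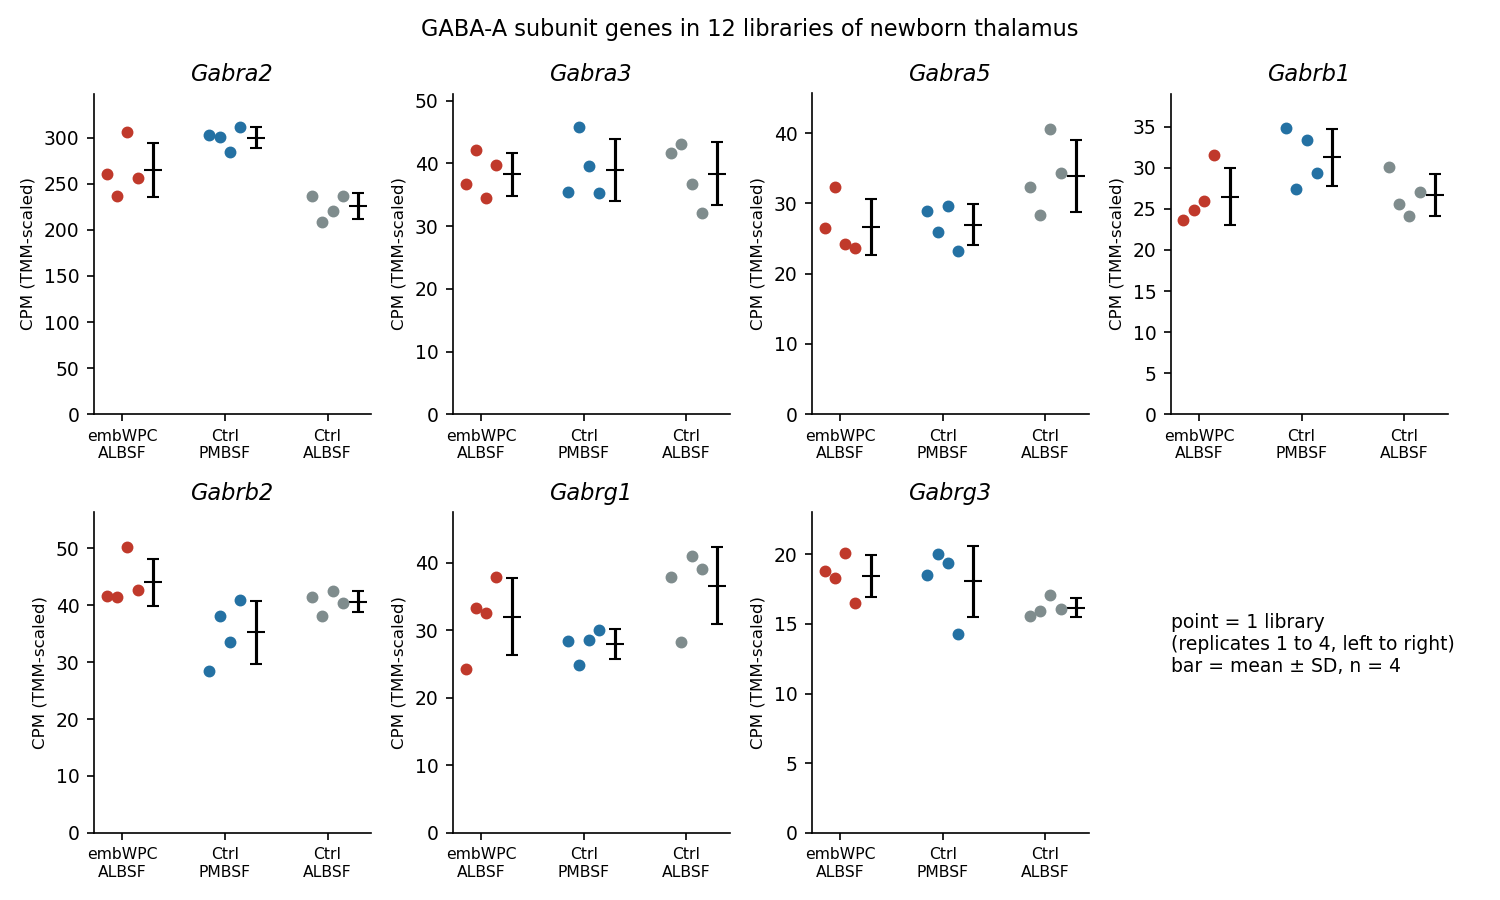
CPM of each of the 7 subunit genes (y axis, scaled by TMM, starting at 0) in the 12 libraries, grouped on the x axis as embWPC ALBSF, Ctrl PMBSF and Ctrl ALBSF; each point is 1 library and the bar beside each group is the mean ± SD of 4 libraries. Gabra2 lies at 284 to 311 CPM in Ctrl PMBSF, above the 209 to 237 CPM of Ctrl ALBSF, while the groups of the other 6 genes overlap in that comparison.

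Gabra2 was by far the most abundant of the 7 genes. Per kilobase of exon, its level averaged 29.4 ± 4.05 CPM over the 12 libraries (SD, n = 12), against 5.58 ± 0.592 CPM for Gabra3, the next in order. Gabra2 was above Gabra3 in 12 of 12 libraries, and Gabra3 was above Gabrb2 (3.64 ± 0.483 CPM per kilobase) in 12 of 12. Gabrb2, Gabra5 (3.23 ± 0.564) and Gabrg1 (3.17 ± 0.562) were not separated: Gabrb2 was above Gabra5 in 8 of 12 libraries and Gabra5 above Gabrg1 in 7 of 12. Gabrb1 (1.67 ± 0.219) and Gabrg3 (1.47 ± 0.158) were the lowest on this scale and were not separated from each other, with Gabrb1 above Gabrg3 in 7 of 12 libraries. With the length of the canonical transcript in place of all exons, Gabra2 and Gabra3 still came first, but Gabrb2 dropped below Gabra5 and Gabrg1, so the order in the middle depends on which length is used.

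Within control pups, the 2 territories differed in the alpha gene Gabra2. Gabra2 was higher in PMBSF, 1.33-fold, and was the only 1 of the 7 genes called at an adjusted p under 0.05 by edgeR's quasi-likelihood test on all 12 libraries (1 of 7 higher, 0 of 7 lower). Over all 17501 genes tested, 1.62% were called in this comparison and 0.811% were called as higher. At an unadjusted p under 0.05 there were 3 of the 7, Gabra2 as higher and Gabra5 and Gabrg1 as lower, where 11.8% of all genes were. The median log2 difference of the 7 genes was 0.02, against 0 over all genes, so the set had no common direction. In bulk tissue, fewer cells of a type and less RNA per cell cannot be told apart, here and in every difference below.

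Gabra2 encodes the alpha2 subunit, which in rodents is widespread in the immature brain. Its level was 260, 237, 306 and 256 CPM in embWPC ALBSF 1 to 4, 303, 301, 284 and 311 CPM in Ctrl PMBSF 1 to 4, and 237, 209, 220 and 237 CPM in Ctrl ALBSF 1 to 4. All 4 Ctrl PMBSF libraries were above all 4 Ctrl ALBSF libraries, and embWPC ALBSF spanned the gap between them. Gabra2 was the only member whose control groups did not overlap, which held with PMBSF higher for 4.66% of all genes tested. The difference of PMBSF from ALBSF was 0.41 ± 0.08 on the log2 scale (SE; 95% interval 0.23 to 0.59; adjusted p = 0.0233, edgeR). Its p ranked 171 among the genes tested. The size was nearly constant between 0.37 and 0.44 when each library was left out, but the call was not: the edgeR adjusted p was 0.0886, 0.0987 and 0.0528 without Ctrl ALBSF 2, 3 and 4, and 0.0625, 0.0712 and 0.0715 without Ctrl PMBSF 1, 2 and 4. With the level of the meningeal markers as a covariate it was 0.42 at an adjusted p of 0.162 (edgeR), and DESeq2 gave 0.41 at an adjusted p of 0.000224.

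The other alpha genes did not pass the test. Gabra5 encodes alpha5, a subunit found in many receptors outside synapses in the hippocampus. Its level was 26.5, 32.3, 24.2 and 23.6 CPM in embWPC ALBSF 1 to 4, 28.9, 26.0, 29.7 and 23.3 CPM in Ctrl PMBSF 1 to 4, and 32.3, 28.4, 40.6 and 34.3 CPM in Ctrl ALBSF 1 to 4. The control groups overlapped only through Ctrl ALBSF 2, which was below 2 of the 4 PMBSF libraries. The PMBSF difference from ALBSF was −0.33 ± 0.12 on the log2 scale (95% interval −0.59 to −0.07; adjusted p = 0.274, edgeR). Gabra3 encodes alpha3, known from the adult reticular nucleus. Its level was 34.4 to 42.1 CPM across embWPC ALBSF, 35.2 to 45.8 CPM across Ctrl PMBSF and 32.1 to 43.1 CPM across Ctrl ALBSF, so that the 3 groups covered nearly the same range. Its difference between the control territories was 0.02 ± 0.11 (95% interval −0.21 to 0.25; adjusted p = 0.967, edgeR).

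Neither beta gene passed the test. Beta subunits help form the site where GABA binds, and beta2 is the usual partner in the adult thalamus of rodents. Gabrb1 was at 23.6, 24.9, 25.9 and 31.5 CPM in embWPC ALBSF 1 to 4, 34.9, 27.4, 33.4 and 29.4 CPM in Ctrl PMBSF 1 to 4, and 30.1, 25.6, 24.1 and 27.0 CPM in Ctrl ALBSF 1 to 4. Gabrb2 was at 41.7, 41.5, 50.2 and 42.7 CPM in embWPC ALBSF 1 to 4, 28.4, 38.1, 33.5 and 41.0 CPM in Ctrl PMBSF 1 to 4, and 41.4, 38.1, 42.6 and 40.5 CPM in Ctrl ALBSF 1 to 4. In PMBSF the libraries with the most Gabrb1, numbers 1 and 3, had the least Gabrb2. Between the control territories Gabrb1 differed by 0.23 ± 0.11 (adjusted p = 0.43, edgeR) and Gabrb2 by −0.20 ± 0.10 (adjusted p = 0.467, edgeR), with overlapping groups for both.

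Among the gamma genes, Gabrg1 had the larger difference. Gamma1 replaces the common gamma subunit in some receptors, which are then less sensitive to benzodiazepines, and gamma3 is a rarer relative. Gabrg1 was at 24.2, 33.2, 32.5 and 37.9 CPM in embWPC ALBSF 1 to 4, 28.4, 24.9, 28.5 and 30.0 CPM in Ctrl PMBSF 1 to 4, and 37.9, 28.2, 41.0 and 39.1 CPM in Ctrl ALBSF 1 to 4. Ctrl ALBSF 1, 3 and 4 were above every PMBSF library, and Ctrl ALBSF 2 lay within the PMBSF range. The difference of PMBSF from ALBSF was −0.39 ± 0.13 (95% interval −0.67 to −0.10; adjusted p = 0.216, edgeR). Gabrg3 was at 16.5 to 20.1 CPM across embWPC ALBSF, 14.3 to 20.0 CPM across Ctrl PMBSF and 15.6 to 17.1 CPM across Ctrl ALBSF, and differed between the control territories by 0.16 ± 0.10 (adjusted p = 0.617, edgeR).

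Control libraries with the same number varied together, and with the library number entered as a block across the 8 control libraries 3 of the 7 genes were called. Over all 17000 genes of that fit, 5.04% were called, 2.43% as higher and 2.61% as lower. Gabra2 was again higher in PMBSF (0.41 ± 0.07, adjusted p = 0.00544), while Gabrg1 (−0.38 ± 0.07, adjusted p = 0.00848) and Gabra5 (−0.32 ± 0.08, adjusted p = 0.0413) were lower, all by edgeR. The sizes were close to those without the block, and Gabrg1 and Gabra5 were called in no fit without the block. The labels give the numbers and do not say that PMBSF and ALBSF of 1 number came from the same brains.

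The single pairs come from the same control libraries and numbers as the block fit, so they describe it and add no support. The log2 differences of PMBSF from ALBSF in pairs 1 to 4 were 0.35, 0.53, 0.37 and 0.39 for Gabra2. They were −0.41, −0.18, −0.53 and −0.38 for Gabrg1 and −0.16, −0.13, −0.45 and −0.56 for Gabra5. Gabrb1 was above 0 in 4 of 4 pairs (0.21, 0.10, 0.47 and 0.12) and was not called with the block (0.23 ± 0.07, adjusted p = 0.113, edgeR). These 4 genes went 1 way in all 4 pairs, as 27.1% of all genes tested did, and Gabra3, Gabrb2 and Gabrg3 did not. Without pair 4 none of the 7 was called with the block, and the edgeR adjusted p was 0.0766 for Gabra2, 0.0713 for Gabrg1 and 0.244 for Gabra5. Without pair 3 only Gabra2 was called (adjusted p = 0.0155, edgeR), with 0.0724 for Gabrg1 and 0.185 for Gabra5.

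**Figure D2:**
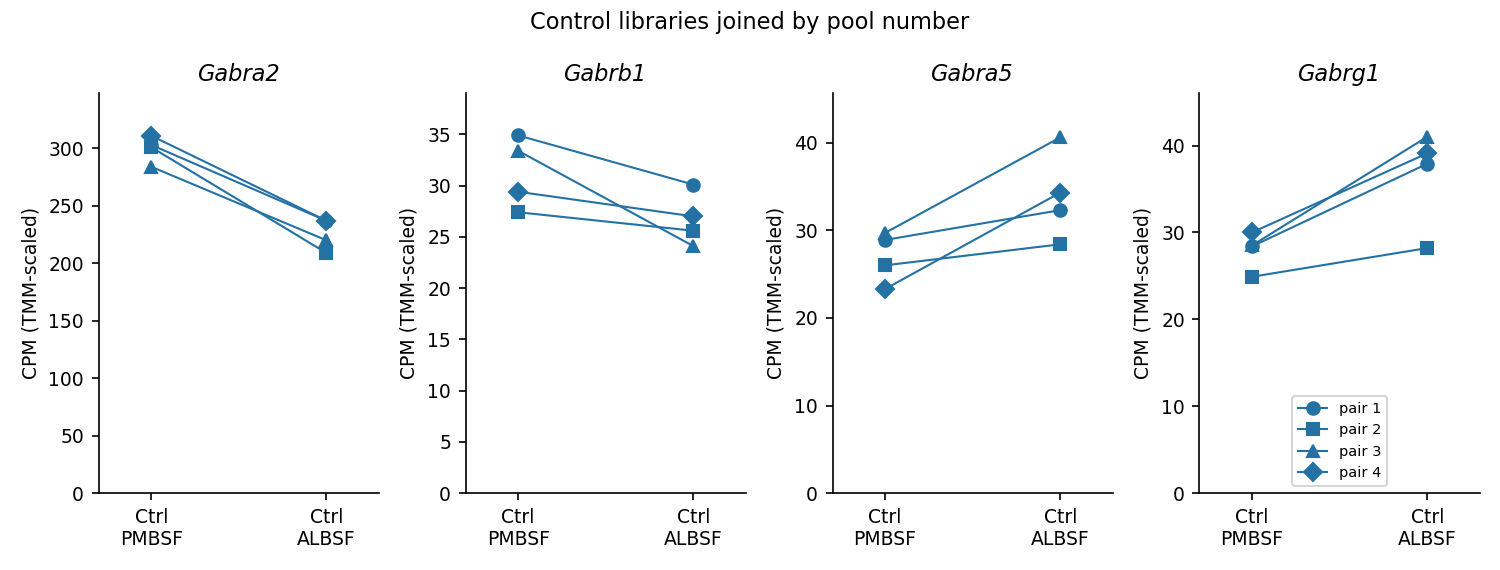
CPM of Gabra2, Gabrb1, Gabra5 and Gabrg1 (y axes, scaled by TMM, starting at 0) in Ctrl PMBSF and Ctrl ALBSF, with a line joining the libraries of each number and a marker shape for each of the 4 pairs. Every line of Gabra2 and Gabrb1 is higher at PMBSF, and every line of Gabra5 and Gabrg1 is lower at PMBSF; pair 2 has the flattest lines of Gabra5, Gabrb1 and Gabrg1.

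ALBSF of embWPC pups was set against ALBSF of Ctrl pups, the same territory in pups of the other label. None of the 7 genes was called by edgeR (0 of 7, where 0.0629% of all genes were), and 2 of the 7 had an unadjusted p under 0.05, where 9.22% of all genes had. DESeq2 called 0 of the 7 as well. Those 2 were Gabra5 (−0.35 ± 0.12; 95% interval −0.61 to −0.08; adjusted p = 0.394, edgeR) and Gabra2 (0.23 ± 0.08; 95% interval 0.05 to 0.41; adjusted p = 0.41, edgeR). Gabra2 averaged 265 ± 29.4 CPM in embWPC ALBSF and 226 ± 13.7 CPM in Ctrl ALBSF (SD, n = 4 each). Gabra5 averaged 26.7 ± 3.98 CPM in embWPC ALBSF and 33.9 ± 5.08 CPM in Ctrl ALBSF. No member had groups that did not overlap, which 5.74% of all genes had. The value of Gabra2 was 0.15 to 0.28 over left-out libraries: it was 0.15 (unadjusted p = 0.0732, edgeR) without embWPC ALBSF 3 and 0.19 (unadjusted p = 0.0516, edgeR) without Ctrl ALBSF 2. That of Gabra5 was −0.45 to −0.25, the last without Ctrl ALBSF 3 (unadjusted p = 0.0627, edgeR).

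Markers of several other cell types were also below 0 in embWPC ALBSF against Ctrl ALBSF, with 0 called by edgeR in each list. Of 6 tested erythroid markers 6 were below 0 (median −0.71, 4 at an unadjusted p under 0.05), and their summed level was 355 to 850 CPM in embWPC ALBSF and 847 to 1332 CPM in Ctrl ALBSF. Of 8 microglia and macrophage markers 8 were below 0 (median −0.46, 0 at an unadjusted p under 0.05), at 41.6 to 54.7 CPM in embWPC ALBSF and 46.6 to 81.0 CPM in Ctrl ALBSF. Of 10 meningeal markers 10 were below 0 (median −0.79, 1 at an unadjusted p under 0.05). Their summed level did not overlap between these groups, at 12.2 to 13.5 CPM in embWPC ALBSF and 18.0 to 19.4 CPM in Ctrl ALBSF. With the meningeal level as a covariate Gabra2 differed by 0.22 and Gabra5 by −0.34, close to the values without it. That covariate differs between the groups, so this fit cannot separate meningeal content from group. The part of the meningeal, erythroid and microglial markers in these differences was not tested.

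The other 5 genes gave intervals that include 0. Gabrg1 differed by −0.19 ± 0.13 (95% interval −0.48 to 0.09) and Gabrg3 by 0.19 ± 0.10 (−0.04 to 0.41). Gabrb2 differed by 0.11 ± 0.10 (−0.11 to 0.33; 0.21 with the meningeal covariate), Gabrb1 by −0.01 ± 0.11 (−0.24 to 0.22) and Gabra3 by 0.00 ± 0.11 (−0.24 to 0.23), all on the log2 scale.

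ALBSF of embWPC pups was then set against PMBSF of Ctrl pups, the territory of whisker pad input. Pup label and territory both differ here and cannot be told apart. None of the 7 was called by edgeR or DESeq2 (0 of 7, where edgeR called 0.00571% of all genes), and 3 of the 7 had an unadjusted p under 0.05 in edgeR, where 9.47% of all genes had. Gabrb2 was the 1 member whose groups did not overlap, at 41.5 to 50.2 CPM in embWPC ALBSF and 28.4 to 41.0 CPM in Ctrl PMBSF, as 2.35% of all genes were with embWPC ALBSF higher. Its difference was 0.32 ± 0.10 (95% interval 0.10 to 0.54, adjusted p = 0.382, edgeR), and 0.24 without Ctrl PMBSF 1 (adjusted p = 0.735, edgeR). Gabrb1 differed by −0.24 ± 0.11 (adjusted p = 0.519, edgeR) and Gabra2 by −0.18 ± 0.08 (adjusted p = 0.526, edgeR). Gabra5 was at nearly the same level in both groups, with a difference of −0.02 ± 0.12 and a 95% interval of −0.28 to 0.25. In this comparison 10 of 10 meningeal markers were below 0 (median −2.13, 8 at an unadjusted p under 0.05, 0 called by edgeR). With their level as a covariate Gabrb2 differed by 0.58 ± 0.19 (adjusted p = 0.246, edgeR) and Gabrb1 by −0.50 ± 0.18 (adjusted p = 0.288, edgeR). Both were over 1.5 times the values without it, with larger SEs. Gabra2 differed by −0.20 ± 0.16 (adjusted p = 0.611, edgeR). The summed meningeal level did not overlap, at 12.2 to 13.5 CPM in embWPC ALBSF and 15.6 to 90.6 CPM in Ctrl PMBSF. This fit therefore cannot separate meningeal content from group. The count of members at an unadjusted p under 0.05 was 1 to 3 over left-out libraries, and 1 without Ctrl ALBSF 4, Ctrl PMBSF 1 or embWPC ALBSF 2. It was also 1 with upper-quartile factors, in the fit of the 8 libraries compared, with the replicate block and with the glial covariate.

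The contrasts of embWPC ALBSF and of Ctrl PMBSF with Ctrl ALBSF share the same 4 Ctrl ALBSF libraries, so their values are set side by side and likeness between them is not a result. The first value in each case is embWPC ALBSF and the second Ctrl PMBSF, both minus Ctrl ALBSF. They were 0.23 and 0.41 for Gabra2, −0.35 and −0.33 for Gabra5 and −0.19 and −0.39 for Gabrg1. They were 0.19 and 0.16 for Gabrg3, −0.01 and 0.23 for Gabrb1, 0.11 and −0.20 for Gabrb2, and 0.00 and 0.02 for Gabra3.

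**Figure D3:**
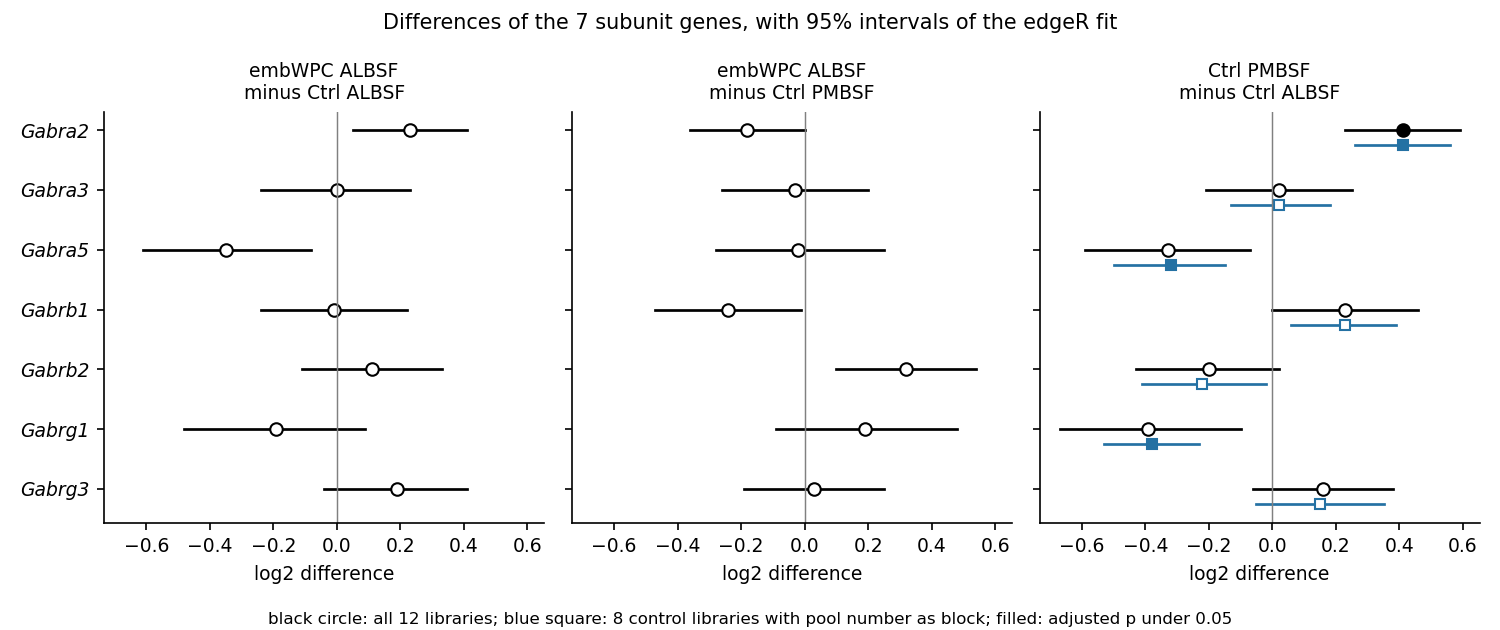
Log2 differences (x axis) of the 7 subunit genes (y axis) in the 3 comparisons, with 95% intervals of the edgeR fit; black circles are the fit of all 12 libraries, blue squares the fit of 8 control libraries blocked by number, and a filled marker has an adjusted p under 0.05. Gabra2 at 0.41 between the control territories is the only filled circle, and Gabra2, Gabra5 and Gabrg1 are the filled squares.

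Shares within each subunit class put these values on a scale that does not depend on library totals. Levels per kilobase of exon were used, the shares are descriptions with no test, and a share moves when any gene of its class does. Among the 3 alpha genes Gabra2 took 77.5 ± 3.47% in embWPC ALBSF, 79.5 ± 1.95% in Ctrl PMBSF and 73.0 ± 2.09% in Ctrl ALBSF (SD, n = 4 each). The lowest PMBSF share of Gabra2, 77.8%, was above the highest ALBSF share of control pups, 75.8%, and embWPC ALBSF ran from 73.2 to 81.7%. Gabra5 took 7.83 ± 1.52% in embWPC ALBSF, 7.12 ± 0.897% in Ctrl PMBSF and 10.9 ± 1.57% in Ctrl ALBSF. Its PMBSF shares of 6.10 to 8.09% lay below the control ALBSF shares of 9.62 to 13.1%, and 1 embWPC library, at 9.92%, reached into the control ALBSF range. Gabra3 took 14.7 ± 2.12% in embWPC ALBSF, 13.4 ± 1.62% in Ctrl PMBSF and 16.1 ± 2.39% in Ctrl ALBSF, with overlapping ranges.

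In the beta class Gabrb1 took 28.1 ± 3.11% in embWPC ALBSF, 36.8 ± 6.16% in Ctrl PMBSF and 29.9 ± 2.20% in Ctrl ALBSF, and Gabrb2 took the rest. Ctrl PMBSF 1 had the highest Gabrb1 share, 44.4%. In the gamma class Gabrg1 took 66.7 ± 5.29% in embWPC ALBSF, 64.6 ± 4.93% in Ctrl PMBSF and 72.4 ± 3.17% in Ctrl ALBSF, and Gabrg3 took the rest. The ranges of all 3 groups overlapped in both classes. Of the summed level of all 7 genes, Gabra2 made up 61.0 ± 3.24% in embWPC ALBSF, 65.0 ± 1.65% in Ctrl PMBSF and 56.3 ± 1.62% in Ctrl ALBSF.

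**Figure D4:**
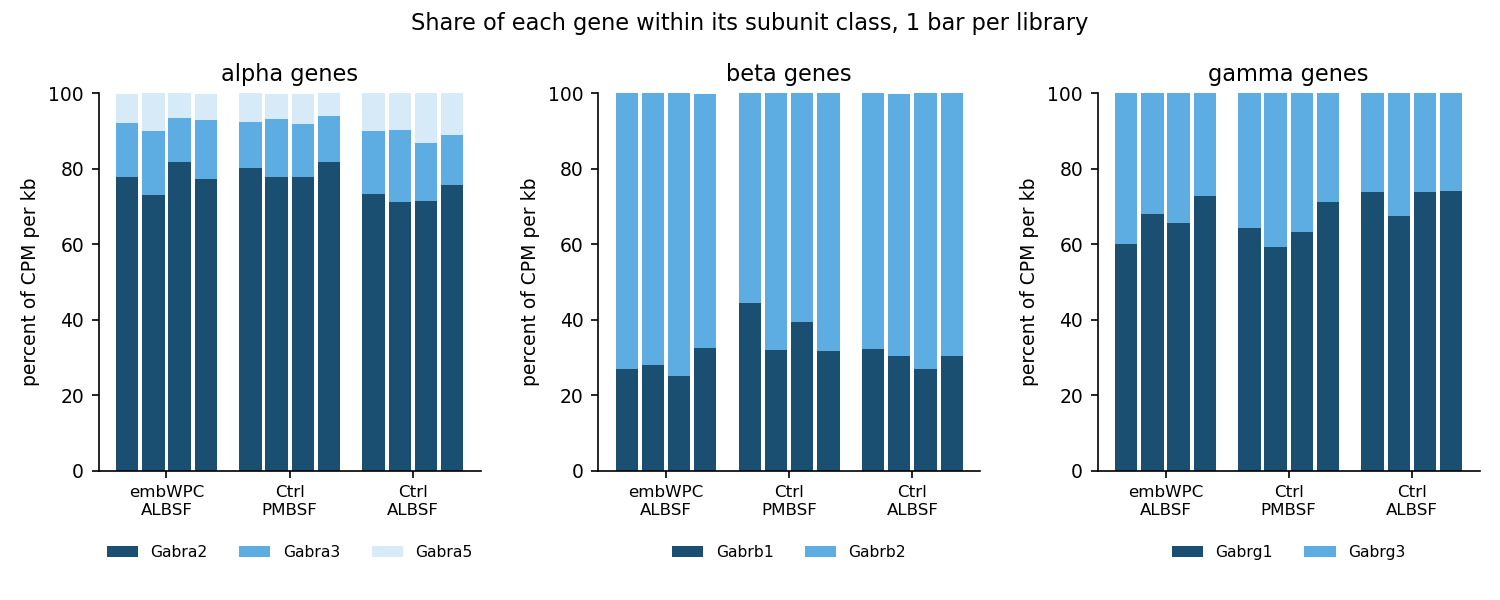
Share of each gene in the summed CPM per kilobase of its subunit class (y axis, percent), with 1 stacked bar per library, ordered as embWPC ALBSF, Ctrl PMBSF and Ctrl ALBSF; the panels are the alpha, beta and gamma genes. Gabra2 fills 71.3 to 81.9% of every alpha bar, and the Gabra5 segment takes 6.41 to 9.92% in embWPC ALBSF, 6.10 to 8.09% in Ctrl PMBSF and 9.62 to 13.1% in Ctrl ALBSF.

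Ratios between single genes were taken within each library, again as descriptions with no test. The ratio of Gabra2 to Gabra5 per kilobase was 10.2 ± 2.23 in embWPC ALBSF, 11.3 ± 1.64 in Ctrl PMBSF and 6.81 ± 0.923 in Ctrl ALBSF (SD, n = 4 each). Its lowest value was 9.62 in Ctrl PMBSF and its highest 7.41 in Ctrl ALBSF, and embWPC ALBSF ran from 7.38 to 12.7. The ratio of Gabra2 to its neighbour Gabrg1 was 9.64 ± 2.16 in embWPC ALBSF, 12.2 ± 1.07 in Ctrl PMBSF and 7.11 ± 0.968 in Ctrl ALBSF. Its range was 7.63 to 12.2 in embWPC ALBSF, 11.3 to 13.7 in Ctrl PMBSF and 6.08 to 8.41 in Ctrl ALBSF. For Gabra2 over Gabra5, embWPC ALBSF 2, at 7.38, lay within the Ctrl ALBSF range and the other 3 embWPC libraries, at 9.87, 12.7 and 10.9, within the Ctrl PMBSF range. For Gabra2 over Gabrg1, embWPC ALBSF 1 to 4 were at 12.2, 8.09, 10.7 and 7.63, of which the first lay within the Ctrl PMBSF range, the third between the control groups and the other 2 within the Ctrl ALBSF range. The ratio of Gabrg3 to Gabrg1 was 0.506 ± 0.121 in embWPC ALBSF, 0.555 ± 0.116 in Ctrl PMBSF and 0.384 ± 0.0634 in Ctrl ALBSF, and that of Gabrb1 to Gabrb2 was 0.394 ± 0.0618, 0.595 ± 0.160 and 0.428 ± 0.0440 in the same order. These last ratios overlapped between all groups. The ratio of Gabra2 to Gabra3 overlapped between the control groups, at 5.06 to 6.81 in Ctrl PMBSF and 3.74 to 5.68 in Ctrl ALBSF. Gabra2 was higher and Gabra5 and Gabrg1 lower in PMBSF in the same libraries. The separation of Gabra2 over Gabra5 and over Gabrg1 follows from that and is no separate result.

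**Figure D5:**
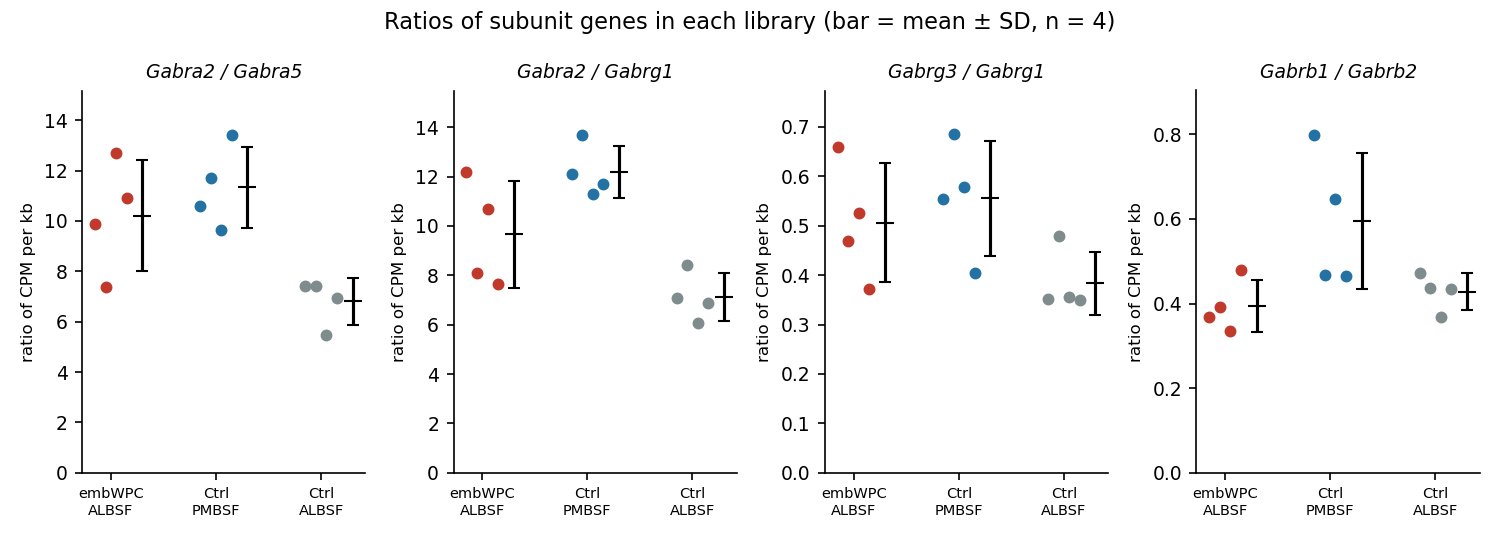
Ratios of CPM per kilobase between pairs of subunit genes (y axes, starting at 0) in each library of embWPC ALBSF, Ctrl PMBSF and Ctrl ALBSF; points are libraries and bars are the mean ± SD of 4. The control groups do not overlap for Gabra2 over Gabra5 or for Gabra2 over Gabrg1, and they overlap for Gabrg3 over Gabrg1 and for Gabrb1 over Gabrb2. Both separations follow from the differences of the single genes.

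The rest of the GABA system was read from 5 lists with 53 genes, of which 49 were tested. None was called in embWPC ALBSF against Ctrl ALBSF or against Ctrl PMBSF by edgeR, where 0.0629% and 0.00571% of all genes were. At an unadjusted p under 0.05 there were 4 and 5 of the 49, where 9.22% and 9.47% of all genes were. DESeq2 called 2 against Ctrl ALBSF and 0 against Ctrl PMBSF. Its share of calls over all genes is not given here, so those 2 cannot be set against a background. Between the control territories 2 of 49 were called, both as higher in PMBSF. Of all genes 1.62% were called there and 0.811% were called as higher. Abat, the transaminase that breaks GABA down, was at 88.1 ± 5.65 CPM in embWPC ALBSF, 95.1 ± 10 CPM in Ctrl PMBSF and 71.5 ± 2.53 CPM in Ctrl ALBSF. It was higher in PMBSF by 0.41 ± 0.08 (adjusted p = 0.0151, edgeR), and its value in embWPC ALBSF against Ctrl ALBSF was 0.30 ± 0.08 (adjusted p = 0.186, edgeR). Kctd8, an auxiliary protein of GABA-B receptors, was at 12.4 ± 1.13 CPM in embWPC ALBSF, 12.8 ± 0.276 CPM in Ctrl PMBSF and 8.59 ± 1.71 CPM in Ctrl ALBSF. It was higher in PMBSF by 0.58 ± 0.12 (adjusted p = 0.0301, edgeR), and its value in embWPC ALBSF against Ctrl ALBSF was 0.53 ± 0.12 (adjusted p = 0.135, edgeR). With single libraries left out, edgeR called 0 of the 49 genes when Ctrl ALBSF 3 or 4 or Ctrl PMBSF 2 was missing, and 1 of them when Ctrl ALBSF 2 or Ctrl PMBSF 1, 3 or 4 was.

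By list, 0 of 21 anchoring and trafficking genes, among them the scaffold gene Gphn, were called between the control territories. Their median log2 difference was −0.03, with 2 at an unadjusted p under 0.05. In this comparison 11.8% of all genes had an unadjusted p under 0.05. Called were 1 of 7 tested genes of GABA synthesis, transport and breakdown (Abat, median 0.21), 1 of 6 genes of GABA-B receptors and their partners (Kctd8, median 0.05), 0 of 12 chloride transporters and their kinases (median −0.08, 2 at an unadjusted p under 0.05) and 0 of 3 glycine receptor genes (median −0.09, 0 at an unadjusted p under 0.05). The chloride importer gene Slc12a2 was at 14.3 ± 1.35 CPM in embWPC ALBSF, 12.2 ± 1.72 CPM in Ctrl PMBSF and 16.1 ± 3.21 CPM in Ctrl ALBSF, with −0.40 ± 0.14 between the control territories (adjusted p = 0.219, edgeR). The exporter gene Slc12a5 was at 64.8 ± 4.69 CPM in embWPC ALBSF, 59.7 ± 6.44 CPM in Ctrl PMBSF and 64.7 ± 2.57 CPM in Ctrl ALBSF (−0.12 ± 0.08, adjusted p = 0.64, edgeR). Of all genes in the fit with the number as a block 5.04% were called. Without pair 1 edgeR called 9 of the 49 in such a fit, and without pair 3 or pair 4 it called 1. The shares of all genes in the fits without a pair are not given here. With all 4 pairs edgeR called 5 of the 49. These were Abat (0.41 ± 0.06), Kctd8 (0.60 ± 0.11) and Kctd16 (0.28 ± 0.06, adjusted p = 0.0288, edgeR), another GABA-B auxiliary protein, as higher in PMBSF. Slc6a11, a glial GABA transporter (−0.58 ± 0.11, adjusted p = 0.00958, edgeR), and Slitrk3, an adhesion protein of inhibitory synapses (−0.30 ± 0.07, adjusted p = 0.0261, edgeR), were lower; Kctd16, Slc6a11 and Slitrk3 were named after their values were seen.

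Genes that mark the cells releasing GABA were low, and Gad1, Gad2 and the prethalamic and reticular markers were uneven between libraries. Gad1, which encodes the enzyme that makes most GABA, was at 2.08 to 9.27 CPM across embWPC ALBSF, 2.67 to 12.8 CPM across Ctrl PMBSF and 1.06 to 14.7 CPM across Ctrl ALBSF. Gad2 was at 1.14 to 6.10 CPM across embWPC ALBSF, 2.23 to 7.47 CPM across Ctrl PMBSF and 0.959 to 8.37 CPM across Ctrl ALBSF, and Slc32a1, the vesicular transporter of GABA, was under 0.5 CPM on average and was not tested. Markers of prethalamic and reticular GABAergic neurons summed to 18.0 to 50.5 CPM in embWPC ALBSF, 25.4 to 75.3 CPM in Ctrl PMBSF and 14.4 to 86.2 CPM in Ctrl ALBSF, and Dlx6, Lhx5 and Sp8 were under 0.5 CPM. Of the 13 tested, 13 were below 0 in embWPC ALBSF against either control group (medians −0.79 against Ctrl ALBSF and −0.63 against Ctrl PMBSF) and 0 were called by edgeR, with 2 and 1 at an unadjusted p under 0.05. Between the control territories 5 were above 0 and 8 below (median −0.12), 0 of them called or at an unadjusted p under 0.05. With this list's level as a covariate, Gabra2 differed between the control territories by 0.42 (adjusted p = 0.0211, edgeR). The 7 markers of midbrain-derived GABAergic interneurons summed to 8.95 to 11.8 CPM in embWPC ALBSF and 10.3 to 12.1 CPM in Ctrl PMBSF. Their sum was 8.99 to 14.0 CPM in Ctrl ALBSF. Only 3 of these were tested, and edgeR called 0 in each comparison. In embWPC ALBSF 2 of the 3 were above 0 against Ctrl ALBSF (median 0.93, 2 at an unadjusted p under 0.05). Against Ctrl PMBSF 1 was above 0 (median −0.20, 1 at an unadjusted p under 0.05).

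Between the control territories edgeR called 1 of 8 markers of oligodendrocytes, 0 of 14 of glia and 0 of 10 of meninges, where 1.62% of all genes were called. The 14 markers of radial glia and astrocytes summed to 6658 to 11962 CPM in embWPC ALBSF, 7399 to 9386 CPM in Ctrl PMBSF and 9340 to 13081 CPM in Ctrl ALBSF. Between the control territories 12 of the 14 were below 0 (median −0.16), and in embWPC ALBSF against Ctrl ALBSF 13 of 14 were (median −0.16). In both cases edgeR called 0 and gave 2 an unadjusted p under 0.05. With the level of this list as a covariate Gabrg1 differed between the control territories by −0.40 (adjusted p = 0.197, edgeR). Without it the value was −0.39. The covariate was chosen after seeing the data, and the part of glial cells in this difference was not tested. Of 8 oligodendrocyte markers, Sox10 was called as lower in PMBSF (−0.67 ± 0.13, adjusted p = 0.0189, edgeR), with 6 of 8 below 0 (median −0.40). An unadjusted p under 0.05 was given by edgeR to 6 of the 8, where 11.8% of all genes had one. Their summed level did not overlap between the control territories, at 349 to 379 CPM in Ctrl PMBSF and 394 to 512 CPM in Ctrl ALBSF. It was 328 to 484 CPM in embWPC ALBSF. The part of oligodendrocyte content in the differences of the 7 genes was not tested. Of 10 meningeal markers, 9 were above 0 in PMBSF (median 1.48), 7 had an unadjusted p under 0.05 and edgeR called 0. With their level as a covariate the difference between the control territories was −0.30 for Gabrg1, −0.35 for Gabra5, 0.39 for Gabrb1, −0.37 for Gabrb2 and 0.05 for Gabrg3. Those of Gabrb1, Gabrb2 and Gabrg3 moved by over 1.5 times from 0.23, −0.20 and 0.16 without it, and none of the 7 was called by edgeR.

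Of the 10 relay neuron markers 2 were also called between the control territories, where 1.62% of all genes were. Rora, a nuclear receptor, was higher in PMBSF (0.39 ± 0.09, adjusted p = 0.0436, edgeR), and Tcf7l2, a transcription factor of Wnt signalling, was lower (−0.76 ± 0.16, adjusted p = 0.0301, edgeR). Of 7 genes listed as markers of the habenula 3 were tested, and Pou4f1, Tac2, Gpr151 and Chat were under 0.5 CPM on average. Of the 3, Nhlh2 was higher in PMBSF (1.05 ± 0.18, adjusted p = 0.00821, edgeR) and Etv1 lower (−0.74 ± 0.14, adjusted p = 0.0151, edgeR).

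The genes whose profile lay closest to Gabra2 were sought among 10180 genes with a mean of at least 5 CPM, by the mean absolute gap in log2 CPM after centring each gene on its own mean over the 12 libraries. The median gap to Gabra2 was 0.202. Gnai1, a G protein subunit, was closest with a gap of 0.0491 and averaged 194 CPM in embWPC ALBSF, 211 CPM in Ctrl PMBSF and 164 CPM in Ctrl ALBSF. Cdr2 followed with 0.0596 (35.0, 39.6 and 31.7 CPM in the same order) and Rin2 with 0.0609 (17, 20.2 and 15 CPM). All 12 libraries entered this measure, so these genes share their depth and group structure with Gabra2, and no test was made.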

How the data were processed

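Bulk RNA was sequenced from 12 libraries (3 groups of 4), each from 5 pooled brains; mRNA was selected with poly-T beads and read as 150-nucleotide pairs, per the labels' protocols. The deposited values are raw counts per Ensembl gene, which the authors made with STAR 2.7.9a on GRCm39, SAMtools 1.15 and featureCounts of Subread 2.0.1 with Ensembl release 104, per the design text of the series and the submitters' processing notes; those also list mm10. Settings for strand, read pairs and reads with several alignments are not given in the sources used here.

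Symbols, positions and exon lengths came from GENCODE vM39, which held 54749 of the 55359 identifiers. No library was a copy of another (lowest chi-square per degree of freedom 12.6). The counts of 17501 genes passing filterByExpr were fitted in R 4.3.3 with edgeR 4.0.16 (TMM scaling, quasi-likelihood test, group as the only term, all 12 libraries), with Benjamini-Hochberg adjustment over all genes tested. Called means an adjusted p under 0.05; the biological coefficient of variation was 15.8%. CPM use the TMM-scaled totals, and levels between genes are compared per kilobase of merged exons. Shares, ratios and list medians have no test.

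Same-numbered control libraries deviated together from their group means (correlations 0.391, 0.201, 0.329 and 0.396), which is where the pairing comes from; embWPC libraries did not (−0.145 to 0.051) and share only a number with the controls. Alternatives were RLE and upper-quartile scaling, other filters, marker levels as covariates, each library left out, 8-library fits, the replicate block and DESeq2 1.42.0. The fit was checked on simulated counts.

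The members and lists were chosen with earlier results of these data known. All 7 members are named, with the called genes of lowest p from each list, Gad1, Gad2, Slc32a1, Slc12a2 and Slc12a5, and the 3 genes most like each called member. Promoters came from RefSeq (GRCm38.p6), which matched all 7 symbols. Differences are the first-named group minus the second, on the log2 scale, with the SE of the fit.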

Additional observations from a re-analysis of the deposited data

Results flagged for a closer look

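In 2 of 36 groups of 4 checked (the CPM of each gene, and the class shares per length of the alpha genes, Gabrb1 and Gabrg1), 1 library stood far from the other 3, and chance flags about 1 in 20 groups. Gabrb2 was at 50.2 CPM in embWPC ALBSF 3, where the other embWPC libraries had 41.5 to 42.7 CPM. Gabrg1 took 67.6% of the gamma class in Ctrl ALBSF 2, where the other Ctrl ALBSF libraries had 73.8 to 74.1%.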

How the results depend on the processing

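Limits: with 4 pools a group and differences under 0.5 on the log2 scale, calls turned on single libraries. The number of members called between the control territories was 1, with 0 to 1 when each library was left out, 0 with the meningeal covariate and 3 with the replicate block (0 to 3 without each pair, chosen after seeing the data). Block calls in embWPC comparisons stayed at 0, but the numbers do not pair libraries there, so this adds no support. Of the other GABA genes, called counts between the control territories were 2, with 0 to 2 over left-out libraries, 0 with the meningeal covariate, 1 in the 8-library fit and 5 with the block (1 to 9 without each pair).

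In embWPC ALBSF against Ctrl ALBSF the called counts of the other GABA genes were 0. They were 1 under the GABAergic covariate, 2 by DESeq2 and 0 to 1 over left-out libraries (1 without Ctrl ALBSF 1). Over all genes edgeR called 11 there in the main fit, 33 under the GABAergic covariate and 22 without Ctrl ALBSF 1. Against Ctrl PMBSF the count of the other GABA genes was 0, and 1 without a filter. Over all genes edgeR called 1 there in the main fit and 72 without a filter. Values near 0 changed sign. For Gabra3 against Ctrl ALBSF the value was 0.01 with upper-quartile factors, in the 8-library fit, with the block and with the glial covariate, 0 without a filter, 0.09 with the meningeal and 0.08 with the GABAergic covariate, and −0.08 to 0.06 over left-out libraries. For Gabrb1 it was 0 with upper-quartile factors and in the 8-library fit, 0.03 with the GABAergic and glial covariates, and −0.10 to 0.06 over left-out libraries. Against Ctrl PMBSF, Gabra3 was 0.26 with the meningeal and 0.09 with the GABAergic covariate (−0.08 to 0.06 over left-out libraries), Gabra5 0.01 with the meningeal covariate (−0.12 to 0.05) and Gabrg3 −0.06 to 0.09. Between control territories Gabra3 was −0.16 with the meningeal and −0.01 with the GABAergic covariate (−0.06 to 0.10), and 0 and −0.02 with the block without pairs 3 and 4. The cause was not tested. Among the 7 genes the replicate block changed no other call than those of Gabra5 and Gabrg1. With canonical transcript lengths the Gabra2 share was 69.5% in embWPC ALBSF, 71.9% in Ctrl PMBSF and 63.6% in Ctrl ALBSF.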
